A study of Homo sapiens with 2 samples.

Results

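This report describes p52 binding at the 5 genes of the A20 and ABIN feedback module, TNFAIP3, TNIP1, TNIP2, TNIP3 and CYLD. The genes were taken by name, with earlier results of these data known, and every p52 summit within 100 kb of their gene bodies in the GENCODE annotation was collected. Of 2007 summits in replicate 1, 4 lay in these windows, and of 1467 summits in replicate 2, 2 did. p52 binding was mapped by ChIP-seq with an antibody against NFKB2 in MDA-MB-231 cells, an established triple-negative breast cancer (TNBC) line. The cells were starved for 8 h and treated for 48 h with 10 ng/ml TWEAK, the cytokine ligand of the Fn14 receptor, which was renewed after 24 h. NFKB2 encodes both the precursor p100 and p52, and the antibody is not described further in the sources used here. The 2 replicates form 1 group. No untreated or input library was analysed here, so binding before TWEAK treatment was not examined, and neither was the level of the 5 transcripts. The paper describes p52 ChIP-seq and RNA-seq of this line without the cytokine as well as with it. Its untreated p52 data and its RNA data were not used here.

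TNFAIP3 encodes A20, a ubiquitin-editing enzyme that ends NF-κB signalling by acting on ubiquitinated adaptor proteins upstream of the IκB kinase. TNIP1, TNIP2 and TNIP3 encode ABIN-1, ABIN-2 and ABIN-3, which bind A20 and ubiquitin chains, and CYLD encodes a deubiquitinase that removes linear and K63-linked chains. TNFAIP3 is a textbook NF-κB target gene, so that the pathway induces its own brake. p52 is made from the NFKB2 precursor when the non-canonical pathway is active, and it binds DNA at κB sites as a dimer with RELB or with another NF-κB subunit.

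The DNA at the bound places of TNFAIP3 and TNIP1 is shown first because all summits of the 5 genes lie there. Each sequence is from hg38 and is written 5′ to 3′ on the strand of the gene, and capitals mark κB matches on either strand. A match was 3 guanines, a purine, 2 bases of any kind, 2 pyrimidines and 2 cytosines in a row, and overlapping matches were joined into 1 site. The first stretch ends 1 bp before the first start site of TNFAIP3 (chr6:137867064-137867213, plus strand). The second ends 1 bp before the TNIP1-213 start site (chr5:151087167-151087316, minus strand). The third lies upstream of the outermost TNIP1 start site (chr5:151094174-151094306, minus strand) and the fourth inside an intron of TNIP1 (chr5:151085534-151085654, minus strand).
TNFAIP3 promoter: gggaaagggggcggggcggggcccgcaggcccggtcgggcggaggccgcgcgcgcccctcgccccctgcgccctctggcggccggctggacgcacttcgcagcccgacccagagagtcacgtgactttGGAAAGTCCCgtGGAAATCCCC
TNIP1 alternative promoter: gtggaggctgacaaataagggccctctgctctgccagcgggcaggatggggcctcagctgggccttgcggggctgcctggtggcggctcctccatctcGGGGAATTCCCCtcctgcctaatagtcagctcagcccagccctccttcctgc
TNIP1 upstream site: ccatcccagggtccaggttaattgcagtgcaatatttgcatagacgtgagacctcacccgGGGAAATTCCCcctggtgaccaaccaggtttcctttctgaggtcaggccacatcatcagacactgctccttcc
TNIP1 intronic site: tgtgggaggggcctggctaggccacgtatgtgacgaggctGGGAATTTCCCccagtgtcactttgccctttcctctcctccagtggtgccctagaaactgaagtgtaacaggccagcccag
The TNIP1 alternative promoter holds GGGGAATTCCCC, which reads the same on both strands. The upstream and intronic sites of TNIP1 hold the same 11 letters in opposite orientation, GGGAAATTCCC and GGGAATTTCCC. The TNFAIP3 promoter holds 2 separate sites, GGAAAGTCCC and GGAAATCCCC, with centres 12 bp apart.

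To see which of the 5 genes had p52 nearby, summits within 100 kb of each gene body were counted. TNIP1 had summits in both replicates, TNFAIP3 had a summit in replicate 1 alone, and TNIP2, TNIP3 and CYLD had none. Summits of both replicates were thus found at 1 of 5 genes, beside 14.2% of 20033 protein-coding genes on chromosomes 1 to 22, X and Y. In replicate 1, 2 of 5 genes had a summit (25% of all protein-coding genes), and in replicate 2, 1 of 5 did (16.8%). In either replicate the count was 2 of 5, beside 27.5% of all genes. With so few genes, these counts do not set the module apart from protein-coding genes in general.

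At start sites the share of all genes was much smaller. A promoter summit, within 1 kb of any annotated start site of the gene, was present in both replicates at TNIP1 alone, and 0.764% of protein-coding genes had one. A gene with more annotated starts has more chances to meet this rule. TNIP1 has 17 start positions, and the share of all genes was not matched for that number. In replicate 1 both TNIP1 and TNFAIP3 had a promoter summit, as did 1.93% of protein-coding genes. TNIP1 had 2 summits shared between the replicates, that is, within 200 bp of each other, and 1.72% of protein-coding genes had at least 2 within 100 kb. Given how the genes were chosen, no test was made of these counts.

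**Figure D1:**
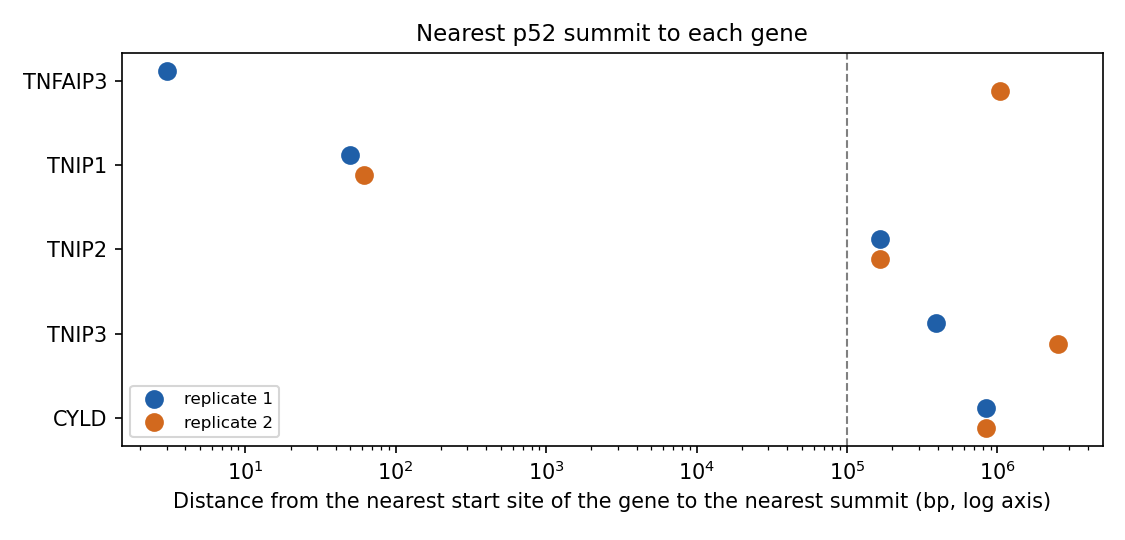
Distance in bp, on a log axis, from the nearest annotated start site of each gene to the nearest p52 summit, with 1 point for each replicate and a dashed line at 100 kb. TNIP1 had a summit within 62 bp in both replicates, TNFAIP3 within 3 bp in replicate 1 alone, and the other 3 genes lay beyond the line in both.

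TNIP1 (ENSG00000145901.16, chromosome 5, 151029945 to 151093577, minus strand) has 21 annotated transcripts with 17 different start positions, and the summits were found at only some of them. The strongest summit of the 5 genes was at 151087216 in replicate 1 and at 151087228 in replicate 2, 12 bp apart. These positions are 50 and 62 bp upstream of the start of TNIP1-213 (151087166), inside an intron of longer transcripts, and 58 and 70 bp upstream of the next start (151087158), which TNIP1-218 shares with 1 other transcript. These transcripts are protein-coding. The canonical transcript TNIP1-211 starts further into the gene, at 151081034, and the summits lay 6182 and 6194 bp upstream of it. Of the 17 start positions, 4 had a summit within 1 kb, the same 4 in both replicates. These were the starts of TNIP1-209, TNIP1-214, TNIP1-213 and TNIP1-218.

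The summit at the alternative promoter had −log10 q of 57.8 in replicate 1 and 60.5 in replicate 2. This is the authors' peak-calling score at the summit, in which a higher value means a more significant peak. It ranked 119 of 2007 in replicate 1 and 55.5 of 1467 in replicate 2, where it was tied. Among summits on chromosomes 1 to 22, X and Y the ranks were 103 and 31.5. The score thus lay in the top 5.93% and 3.78% of the lists, with a mean of 59.2 ± 1.88 (SD, n = 2). Read depth per library was unknown and the score rises with depth, so the ranks are the safer comparison. The positions in the lists differed by 2.15 percentage points, and the median over the 990 summit pairs shared between the replicates was 12.9. A pair so near the top of both lists has little room to differ, so this comparison does not measure how well the summit was reproduced.

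A weaker shared pair lay in intergenic sequence just upstream of the gene. It was at 151094234 in replicate 1 and 151094246 in replicate 2, which is 657 and 669 bp upstream of the TNIP1-209 start (151093577). The nearest start of another gene, ANXA6, which encodes a calcium-dependent membrane-binding protein, was 11038 and 11026 bp away. The −log10 q was 8.00 in replicate 1, rank 1207.5, and 15.0 in replicate 2, rank 452, with a mean of 11.5 ± 4.98 (SD, n = 2). This pair differed more in list position than the pair at the alternative promoter, but a pair lower in the lists also has more room to differ. Its positions in the lists differed by 29.4 percentage points, and 15.2% of the 990 shared pairs differed by at least as much. The distance between the 2 TNIP1 pairs was 7018 bp in each replicate.

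The third TNIP1 place was found in replicate 1 alone. Its summit at 151085594 lay in an intron, 1564 bp into the gene from the start of TNIP1-218 and 4560 bp upstream of the canonical start. The −log10 q was 6.94, at a tied rank of 1340 of 2007. The nearest summit of replicate 2 was the one at the alternative promoter, 1634 bp away. Among the 100 summits of replicate 1 nearest to it in rank, 29 were shared with replicate 2, so a summit of this strength was more often missing from the other list than present.

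**Figure D2:**
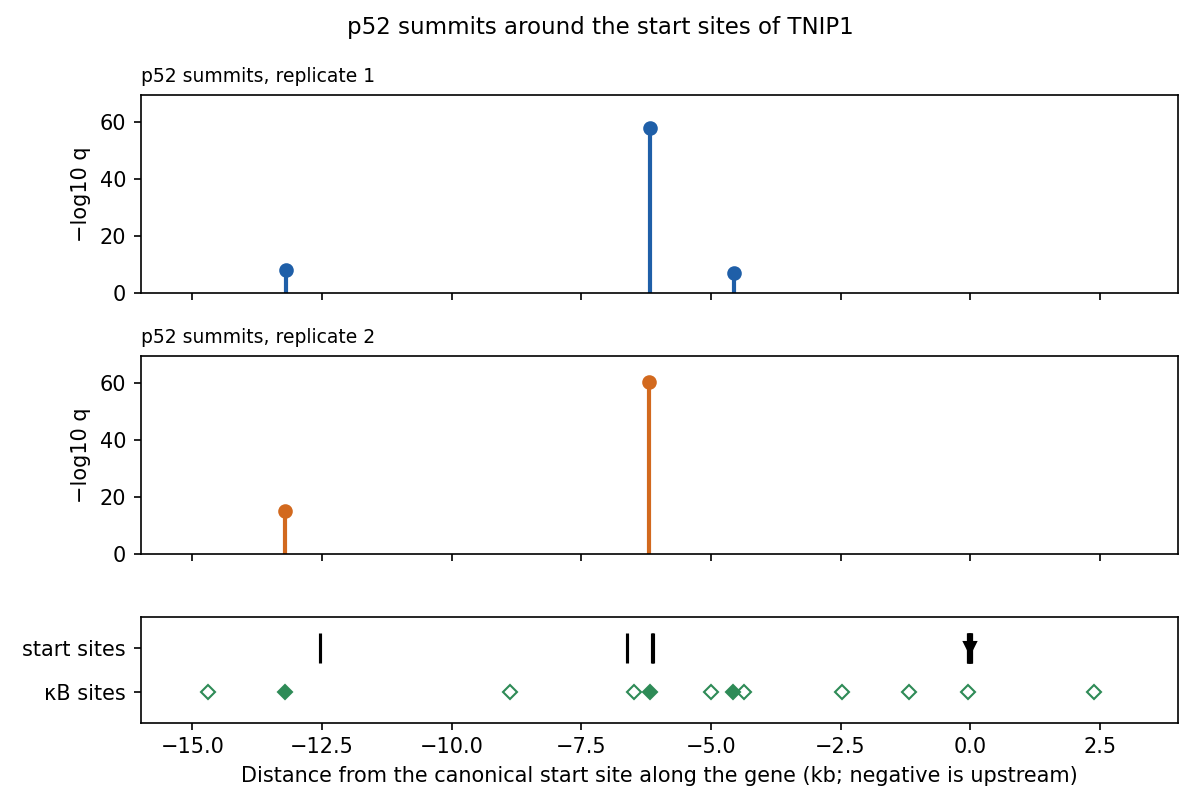
p52 summits around the TNIP1 start sites, with −log10 q on the vertical axes of the upper panels (replicate 1, then replicate 2) and, in the lowest panel, annotated start sites (bars, with a triangle at the canonical start) and κB sites (filled where a summit of either replicate lay within 100 bp). The horizontal axis is the distance in kb from the canonical start along the gene. The summit 6182 and 6194 bp upstream reached 57.8 and 60.5, the one 13200 and 13212 bp upstream 8.00 and 15.0, and no summit lay at the canonical start.

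TNFAIP3 (ENSG00000118503.18, chromosome 6, 137867214 to 137883314, plus strand) had 1 summit in replicate 1, placed on its main promoter. The summit at 137867211 was 3 bp upstream of the first annotated start (TNFAIP3-203) and 48 bp upstream of the start of the canonical transcript TNFAIP3-206 (137867259). Of the 9 start positions, 7 lay within 1 kb of it. The −log10 q was 11.2, above the list median of 10.3. Its rank was 936.5 of 2007, the mean rank of a run of summits with the same score. In replicate 2 there was no summit within 100 kb, and the nearest lay 1044335 bp from the gene.

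The absence from replicate 2 was not unusual for a summit of this strength. Among the 100 summits of replicate 1 nearest to it in rank, 37 were shared with replicate 2. The list of replicate 2 was shorter and reached −log10 q of 1.02 at its lowest, so a site that is not listed may still hold p52 below what that library could show. The TNFAIP3 summit is therefore a value from 1 library, with no replicate check. A long non-coding RNA gene on the opposite strand, WAKMAR2, has a start 493 bp from the summit. No other protein-coding gene lay within 100 kb of the TNFAIP3 gene body.

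**Figure D3:**
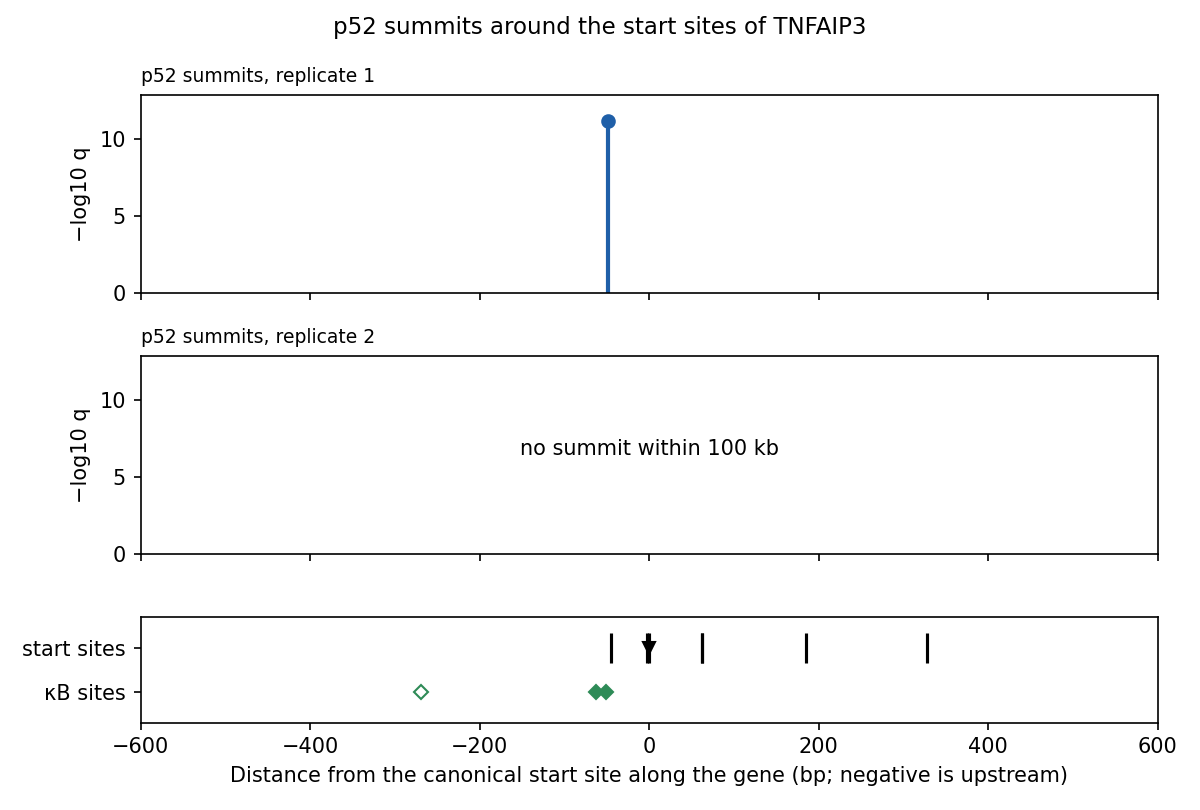
p52 summits around the TNFAIP3 start sites, with −log10 q on the vertical axes of the upper panels and start sites (bars, with a triangle at the canonical start) and κB sites (filled where a summit lay within 100 bp) in the lowest panel, against the distance in bp from the canonical start. The summit of replicate 1 (−log10 q of 11.2) lay 48 bp upstream of the canonical start, beside 2 κB sites, and replicate 2 had no summit within 100 kb.

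The places can be put in order of strength within each list. In replicate 1 the alternative promoter of TNIP1 (57.8) was first, followed by the TNFAIP3 promoter (11.2), the upstream site of TNIP1 (8.00) and its intronic site (6.94). In replicate 2 the alternative promoter of TNIP1 (60.5) stood above the upstream site (15.0). The alternative promoter was first in both lists. In replicate 1 the TNFAIP3 promoter (rank 936.5) stood above the upstream TNIP1 site (rank 1207.5), whereas replicate 2 listed only the upstream site. The order of these 2 places is thus not settled by the replicates. The stretches within 100 bp of all 6 summits consisted of unique sequence, since each of their 171 overlapping 31-mers occurred once in the reference without alternate sequences.

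**Figure D4:**
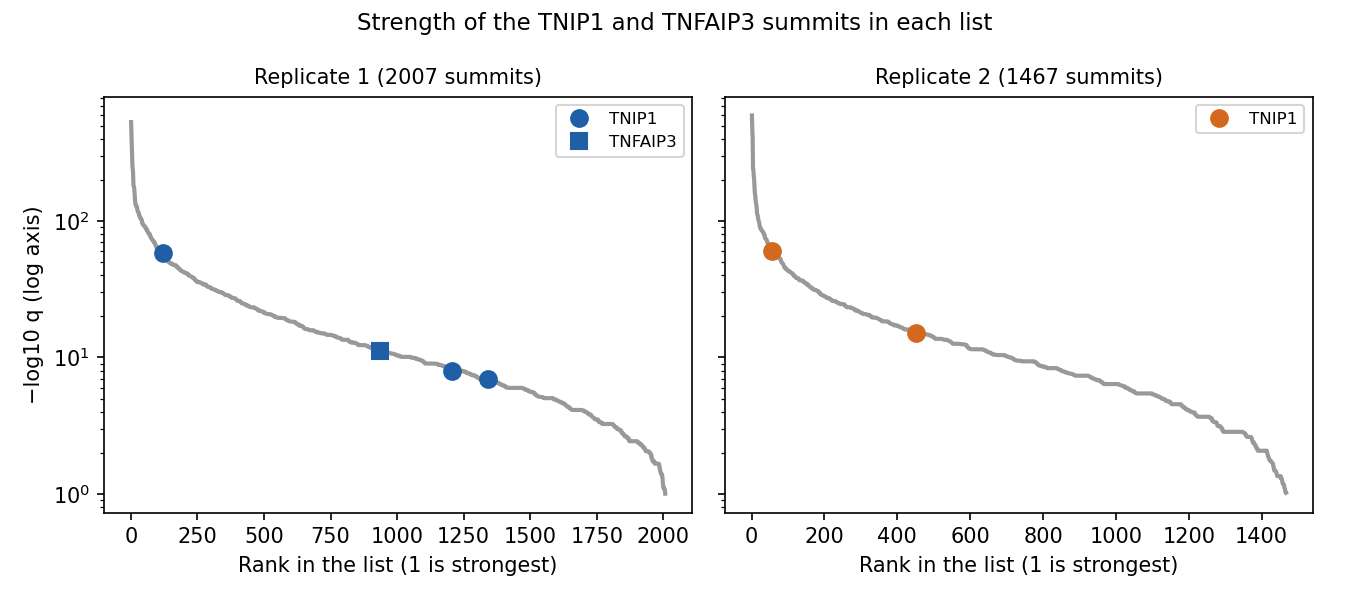
−log10 q of every summit on a log axis against its rank in the list, in replicate 1 and replicate 2, with the summits of TNIP1 (circles) and TNFAIP3 (square) marked. The strongest TNIP1 summit was at rank 119 in replicate 1 and 55.5 in replicate 2, and the TNFAIP3 summit was at rank 936.5 in replicate 1.

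TNIP1 stood near the top of the protein-coding promoters with a shared summit. Of 142 such genes ordered by mean rank in both lists, TNIP1 was at place 5, with a mean rank of 87.25. The 3 genes just above were NFKB2, which encodes p52 itself (mean rank 29.25), GOLGA3, a Golgi matrix protein gene (37.75), and GPBP1, a gene for a promoter-binding protein (42.5). Below TNIP1 was the forkhead factor gene FOXP4 (114). The summits of NFKB2, GPBP1 and FOXP4 had κB matches in both replicates, and those of GOLGA3 had none. This likeness is in rank alone.

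κB matches were present at every summit of the 5 genes. All 4 summits in replicate 1 and both in replicate 2 had a match within 100 bp, where 52% of all summits on chromosomes 1 to 22, X and Y did in replicate 1 and 57.3% in replicate 2. The site centres were close to the summits. At the alternative promoter of TNIP1 the site at 151087207 to 151087218 was centred 3.50 bp from the summit in replicate 1 and 15.5 bp in replicate 2. The upstream site at 151094236 to 151094246 was centred 7 and 5 bp away, and the intronic site at 151085604 to 151085614 was 15 bp away in replicate 1. At TNFAIP3 the site GGAAATCCCC at 137867204 to 137867213 was centred 2.50 bp from the summit and GGAAAGTCCC at 137867192 to 137867201 was 14.5 bp away. AP-1 matches (TGANTCA, either strand) were found within 100 bp of none of the 6 summits, which lay at 4 distinct places. The share of all summits with an AP-1 match is not given here, so whether this count is unusual was not tested. An AP-1 match, TGACTCA, lay at 137866974 to 137866980 upstream of TNFAIP3, more than 100 bp from the summit.

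The letters at the TNIP1 summits were also found at other p52 summits in the genome, and the counts below include the TNIP1 places themselves. The 12 letters GGGGAATTCCCC occurred at 171 places on chromosomes 1 to 22, X and Y, of which 30 had a summit within 100 bp in both replicates, TNIP1 included. This is 17.5% (95% Wilson interval 12.6 to 23.9). Of the 10 places within 1 kb of a protein-coding start, 5 had a summit in both replicates. The 11 letters GGGAAATTCCC, on either strand, occurred at 1682 places, and 54 of them (3.21%, 95% Wilson interval 2.47 to 4.17) had summits in both. Over all 403422 κB sites the share was 0.165% (95% Wilson interval 0.153 to 0.178). The intervals cover counting error alone, and sites that overlap longer runs were counted by their full length.

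Both sets of letters at the TNFAIP3 promoter had smaller shares at summits than those at the TNIP1 summits, but they differed from each other. The first set below had a share above the 0.165% of all κB sites. By count at summits of both replicates it was at place 4 of 142, and the letters of the TNIP1 alternative promoter were at place 5. The second set was at place 34. GGAAAGTCCC, the reverse complement of GGGACTTTCC, had summits of both replicates at 37 of 4884 places (0.758%, 95% Wilson interval 0.55 to 1.04), and GGAAATCCCC at 2 of 2885 (0.0693%, 95% Wilson interval 0.019 to 0.252). GGAAAGTCCC also occurs at start sites of TNIP1 and CYLD that had no summit. In replicate 1 alone, GGAAAGTCCC had a summit at 68 places, GGAAATCCCC at 6 and GGGGAATTCCCC at 36. All these letters were picked because they lie at summits of TNIP1 or TNFAIP3, and the TNFAIP3 summit was absent from replicate 2. The shares are therefore descriptions, and a difference between the letters was not tested.

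Of the 17 κB sites near starts that had no summit within 100 bp, 4 are shown for comparison with those at summits, because they lie within 200 bp upstream of the canonical or outermost start of a gene, with capitals as before. The TNIP1 stretch is at the canonical start (chr5:151081057-151081086, minus strand). The TNIP3 stretches end 1 bp before the outermost start (chr4:121227467-121227576, minus strand) and before the canonical start (chr4:121164322-121164421, minus strand), and the CYLD stretch ends 1 bp before the first start (chr16:50741890-50742049, plus strand).
TNIP1 canonical start: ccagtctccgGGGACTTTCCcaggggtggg
TNIP3 outermost start: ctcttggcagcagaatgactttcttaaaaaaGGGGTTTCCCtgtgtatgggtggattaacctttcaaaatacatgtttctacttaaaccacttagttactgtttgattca
TNIP3 canonical start: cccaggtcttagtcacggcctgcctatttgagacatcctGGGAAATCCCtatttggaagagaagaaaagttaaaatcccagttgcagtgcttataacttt
CYLD first start: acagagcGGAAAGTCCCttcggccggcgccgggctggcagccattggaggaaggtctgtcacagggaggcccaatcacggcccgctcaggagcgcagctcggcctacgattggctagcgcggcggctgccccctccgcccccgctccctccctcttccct
The TNIP1 site at 151081067 to 151081076 was centred 37.5 bp upstream of the canonical start, and the nearest summit was 4522.5 bp away in replicate 1 and 6156.5 bp away in replicate 2. The same letters occur at TNFAIP3, where replicate 1 had a summit, and at CYLD, where neither replicate had one.

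Within 100 kb of the 5 genes there were 263 κB sites, and 5 of them had a summit within 100 bp in either replicate. Of these 263, 21 lay within 1 kb of a start, with 2 at a summit in both replicates (both at TNIP1) and 2 at a summit in replicate 1 alone (both at TNFAIP3). TNIP1 had 9 such sites near starts, of which 7 were at no summit. TNFAIP3 had 3, TNIP2 had 2, TNIP3 had 4 and CYLD had 3. The RefSeq promoter table (GRCh38.p14, 250 bases before to 50 after a start) held 10 promoters of the 5 genes, and 6 of them had a κB match, beside 11.3% of 35116 promoters. Only the TNFAIP3 promoter among the 10 had a summit within 100 bp of the window, in replicate 1. The bound alternative promoter of TNIP1 is not among the 10. Of all RefSeq promoters with a κB match, 1.77% had a summit in replicate 1 and 0.683% in both replicates, so most promoters with a match had none. Among promoters without a match the shares were smaller, 0.144% in replicate 1 and 0.0289% in both.

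**Figure D5:**
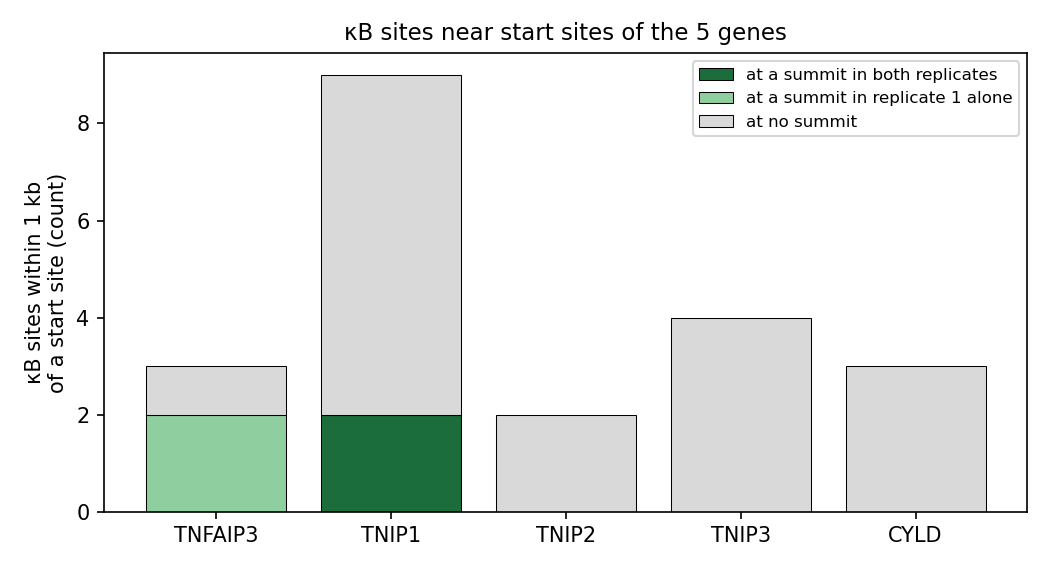
Number of κB sites within 1 kb of an annotated start site of each gene, divided by whether a summit lay within 100 bp in both replicates, in replicate 1 alone, or in neither. TNIP1 had 2 of 9 sites at a summit in both, TNFAIP3 had 2 of 3 at a summit in replicate 1 alone, and the sites of TNIP2, TNIP3 and CYLD were at no summit.

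TNIP2, TNIP3 and CYLD had no p52 summit within 100 kb in either replicate. For TNIP2 (ENSG00000168884.15, chromosome 4, 2741648 to 2756342, minus strand) the nearest summit was 167049 bp from the gene in replicate 1 and 167052 bp in replicate 2. Its first start site had no κB match within 250 bp, but a looser consensus, with any purine as the third base, had 1 match, GGAAAGTTCC, in the RefSeq promoter there. For TNIP3 (ENSG00000050730.16, chromosome 4, 121131408 to 121227466, minus strand) the nearest summit was 388977 bp away in replicate 1 and 2515910 bp in replicate 2. For CYLD (ENSG00000083799.18, chromosome 16, 50742050 to 50801935, plus strand) it was 844546 bp away in replicate 1 and 844812 bp in replicate 2. The window of CYLD held 68 κB sites, that of TNIP2 70, that of TNIP1 60, that of TNFAIP3 34 and that of TNIP3 31, so the windows of CYLD and TNIP2, without a summit, held more of these letters than the windows of TNIP1 and TNFAIP3, and that of TNIP3 held the fewest. These sites were not detected as bound at the depth and threshold of the lists.

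The genes that work with A20, the ABIN proteins and CYLD were examined in the same way. The list held 24 genes, among them A20 cofactors, the linear ubiquitin machinery, other deubiquitinases and ubiquitinated signalling proteins. Of these, 10 had a summit within 100 kb in replicate 1 (25% of all protein-coding genes) and 6 in replicate 2 (16.8%). In both replicates 5 genes did (14.2%), namely ITCH, RNF11, OTULIN, IKBKB and TAB1. None of the 24 had a promoter summit in both replicates, beside 0.764% of all protein-coding genes. With a share so small, none would be usual for any 24 genes.

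At these 5 genes the summits were distant from the gene's own starts. RNF11, an adaptor of the A20 complex, had a shared pair with −log10 q of 37.8 and 26.2 in replicates 1 and 2, without a κB match. This pair was 78164 and 78170 bp from the RNF11 start, but nearer to that of C1orf185, at 55823 and 55817 bp. IKBKB, the IKKβ kinase gene, had a shared pair with 26.0 and 8.34, 16795 and 16798 bp from its nearest start, but 2555 and 2552 bp from that of POLB, a DNA polymerase gene. ITCH, a ubiquitin ligase that acts with A20, had a shared pair with 7.65 and 4.07, 28447 and 28456 bp from its start, with κB matches. It lay nearer to AHCY, the gene of adenosylhomocysteinase, at 22986 and 22977 bp. OTULIN, which cleaves linear ubiquitin chains, and TAB1, an activator of the TAK1 kinase, had summits of both replicates in their windows that were not shared. At TAB1 these lay 1272 and 1676 bp from a start of ATF4, a stress-response factor. At OTULIN the strongest summit of replicate 1 was 24192 bp from its own start and that of replicate 2 was nearest to OTULINL, a related gene, at 24002 bp.

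The only promoter summit of the list was at OPTN, named here after its values were seen. In replicate 1 this was 1 of 24 genes, beside 1.93% of all protein-coding genes, so it does not set the list apart. OPTN encodes optineurin, which shares a ubiquitin-binding region with the ABIN proteins. It had a summit 18 bp from a start in replicate 1, with −log10 q of 5.98 at rank 1419 and κB matches, and none within 100 kb in replicate 2.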

How the data were processed

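Both files are lists of p52 ChIP-seq summits, 1 for each replicate. Per the methods of the study, the authors removed adaptors with Trimmomatic, aligned reads to hg38 by Bowtie2, called peaks using MACS2 with input subtraction and dropped blacklisted regions. Tool versions, the q threshold and the clone of the antibody are not given in the sources used here. The deposited lists have no header. Column 5 was read as the authors' −log10 q-value at each summit, from the layout of MACS2 summit files, and was compared between lists by rank, tied values sharing the mean rank. Read depth was unknown. Peaks were called in each replicate on its own, as the peak names show. Replicates are separate samples by label, and the study states biological replicates for such experiments.

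Summits were placed on GENCODE release 44 (hg38), and all 10 RefSeq promoters of the genes equalled hg38 at their coordinates. Scripts ran in Python 3.11.15 with numpy 2.4.6, numba 0.67.0, scipy 1.17.1 and matplotlib 3.10.9, after the motif and distance functions were tested on simulated data. Named were the 5 genes with every summit near them, pathway genes with summits in both replicates, nearer protein-coding genes, and the 3 genes on each side in mean rank, of which some are not reported here. The genes, the pathway list and the rules were chosen with earlier results of these data known. With 1 group and no test, values are descriptions. Alternatives covered distance, motif, strength, copy number and rank.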

Additional observations from a re-analysis of the deposited data

How the results depend on the processing

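Of 43 alternative values, 35 stayed within 1.5 times the reported one. The number of genes with a summit in either replicate was 1 without replicate 1 and 2 without replicate 2, since the TNFAIP3 summit rests on replicate 1. Within 200 kb, 2 genes had summits in both replicates, TNIP2 being added, and the summits near the 5 genes numbered 5 in replicate 2. Above the median strength, 2 summits of replicate 1 remained and 1 shared place, the alternative promoter of TNIP1. Among chromosomes 1 to 22, X and Y, that promoter ranked 31.5 in replicate 2. Pathway genes with summits in both replicates numbered 3 within 50 kb and 8 within 200 kb. The κB count was also the same within 50 bp, since the site centres lay closer than that to the summits. A wider distance or either other consensus could not change it. Every summit already had a match, and both other consensuses include all matches of the reported one. These settings are among the 43 alternatives, so their agreement says nothing about robustness. Peak edges were not used, and read depth was unknown. No paired analysis was possible because there was 1 group.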

Other observations

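Beyond 100 kb, 2 shared pairs of summits lay upstream of TNIP2, on the far side of other genes. The nearer pair, 167049 and 167052 bp from TNIP2, was 2918 and 2915 bp from a start of ADD1, a cytoskeletal protein gene, with −log10 q of 22.9 in replicate 1 and 14.4 in replicate 2 and κB matches in both. The farther pair, 181136 and 181137 bp away, was 2644 and 2645 bp from a start of MFSD10, with −log10 q of 47.8 and 27.2 and no κB match. A summit of replicate 2 alone lay 177224 bp from TNIP1, with −log10 q of 5.92, and its nearest protein-coding start was that of GM2A, 11002 bp away. Whether any of these places acts on TNIP2 or TNIP1 was not tested.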
